A study of Mus musculus with 8 samples.

Results

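The 36 genes described here encode chaperones of the endoplasmic reticulum (ER) and parts of the unfolded protein response. They were listed by name, and the list was matched to the gene names in the array files. Of the 36, 34 were measured, out of 13848 gene names tested in all. A gene counted as measured when 1 group or more had a probe of it well above background in all its arrays, and the brightest such probe stood for the gene. All 34 measured genes were well above background on all 8 arrays, so none of them passed that filter through a single group. The remaining genes of the list were Nucb2, a calcium-binding protein that was above background on 1 array, and Derl3, a Derlin that was above background on 0 arrays.

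Proteins that enter the secretory pathway are threaded into the ER through the Sec61 channel, folded there by chaperones such as BiP (Hspa5) and joined by disulfide isomerases. Proteins that fail to fold are pulled back to the cytosol and degraded. When unfolded proteins pile up, the sensors IRE1 (Ern1), PERK (Eif2ak3) and ATF6 raise folding and degradation capacity. IRE1 does so by splicing the mRNA of Xbp1, PERK by slowing translation and inducing ATF4, and ATF6 by releasing a transcription factor. In B-lineage cells this response is best known from plasma cells, where XBP1 is needed for antibody secretion.

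Total RNA came from Ba/F3 cells, a mouse pro-B line kept in IL3, that carried either wild type FLT3 or FLT3/ITD, a receptor tyrosine kinase with an internal tandem duplication that signals without its ligand. The cells were washed and held 4 h in RPMI1640 with bovine albumin and no listed IL3 or serum, with or without 100 ng/ml recombinant murine Cxcl12, the ligand of Cxcr4. This gave 4 groups of 2 arrays. Slide 1 (set 1) held wild type replicate 1 and the ITD called N51, and slide 2 (set 2) held wild type replicate 2 and the ITD called N78. Thus the set and the kind of ITD cannot be told apart, and each group sat at the same position on both slides, so group and position cannot be told apart either. No source used here says whether the wild type replicates were separate cultures or whether a line is 1 clone, so p-values measure only the spread between these samples, which may be technical.

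The 75th percentile of the intensities was 944.5 to 1124 on the arrays of set 1 and 367 to 601 on those of set 2, and 49.2% to 55.0% of probes were well above background. Of 18 pro-B markers 8 were above background on all 8 arrays, among them Cd79a, Cd79b, Vpreb1 and the IL3 receptor chain Il3ra, and 9 on none, among them Pax5, Ebf1, Rag1 and Rag2. Of the 6 plasma cell markers on the array between 0 and 2 were above background, and Prdm1, Irf4, Sdc1 and Igj were so on none. Bulk RNA cannot tell fewer cells of a type from less RNA per cell.

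Many ER chaperone genes carry in their promoters the ER stress response element (ERSE), written CCAAT, then any 9 bases, then CCACG, which is bound by NF-Y at its first part and by ATF6 or XBP1 at its second. The element was first described in promoters of such genes, so its presence here is background and not a result of the arrays. RefSeq promoters (GRCm38.p6, from 250 bases before to 50 after each start) were found for 30 of the 36 genes, and both strands were searched. A full ERSE was present in 10 of the 30 genes, against 37 of 27025 genes in all (0.137%). The second form, ATTGG, any base, CCACG, was present in 2 of the 30, Herpud1 and Dnajb11, against 12 of all genes (0.0444%). The site TGACGTGG, whose complement also holds CCACG, was in 0 of the 30 genes and in 193 of all genes (0.714%). CCACG alone was in 25 of the 30 genes and in 35.5% of all genes, and CCAAT alone in 24 of the 30 and in 41.1%. These 2 short words also lie within the longer elements.

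The stretches below show the element in genes whose levels are described next. Capitals mark both parts of the element, 5′ to 3′ on the strand of the gene, so that an element on the opposite strand reads CGTGG first and ATTGG second. Hspa5 lies at chr2:34772013-34772055 (plus strand), Calr at chr8:84847063-84847105 (minus strand), Canx at chr11:50325788-50325830 (minus strand), Pdia6 at chr12:17266479-17266521 (plus strand), Dnajc3 at chr14:118937815-118937857 (plus strand), Creld2 at chr15:88819508-88819550 (plus strand), Syvn1 at chr19:6046520-6046562 (plus strand) and Herpud1, with the second form, at chr8:94386365-94386399 (plus strand).
Hspa5: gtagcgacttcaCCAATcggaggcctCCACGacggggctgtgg
Calr: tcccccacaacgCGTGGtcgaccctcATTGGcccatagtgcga
Canx: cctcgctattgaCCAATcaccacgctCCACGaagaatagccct
Pdia6: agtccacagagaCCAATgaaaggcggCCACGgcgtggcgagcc
Dnajc3: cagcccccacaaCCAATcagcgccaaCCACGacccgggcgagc
Creld2: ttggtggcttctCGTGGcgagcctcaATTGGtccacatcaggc
Syvn1: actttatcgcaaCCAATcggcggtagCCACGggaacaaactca
Herpud1: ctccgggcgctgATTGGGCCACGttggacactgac
Hsp90b1 held 2 full elements in 1 promoter, at chr10:86705521-86705668 (minus strand), 1 on each strand.
Hsp90b1: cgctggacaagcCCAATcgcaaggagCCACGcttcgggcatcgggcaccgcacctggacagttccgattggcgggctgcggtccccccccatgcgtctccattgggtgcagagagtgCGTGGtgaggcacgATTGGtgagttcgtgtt

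None of Sdf2l1, Ern1, Edem1 and Ero1l, the 4 genes that passed a test below, held either full form in its promoter window. Sdf2l1 is shown as the only one that rose. It held 3 copies each of CCAAT and CCACG before its start (chr16:17132384-17132602, minus strand), none of them at the spacing of the full element. Capitals mark these words on either strand.
Sdf2l1: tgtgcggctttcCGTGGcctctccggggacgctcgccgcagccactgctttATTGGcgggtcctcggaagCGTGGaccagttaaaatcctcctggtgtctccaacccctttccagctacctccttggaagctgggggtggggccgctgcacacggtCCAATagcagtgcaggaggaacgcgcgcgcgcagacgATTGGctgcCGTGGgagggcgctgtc
No match says only that these letters are not in this window. Over the average ITD difference, 4 of the 9 measured genes with a full ERSE were positive and 5 negative, with a median of -0.09, and the 19 measured genes with a promoter but no ERSE had a median of -0.02 (log2). For the average Cxcl12 difference, 7 of the 9 were positive, with a median of 0.05, against 9 of the 19 and a median of -0.01. Of all genes 48.6% were positive for the ITD difference and 50.9% for the Cxcl12 difference. These are descriptions without a test, and 0 of the 9 genes with the element passed in any comparison (limma), where Hspa5 and Calr came closest.

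Levels are given as log2 intensity relative to the 75th percentile of the array, so 0 lies at that percentile, and differences are log2 differences from limma with the standard error (SE), fitted with the array set as block. "Rose" and "fell" are used only of genes with a Benjamini-Hochberg adjusted p under 0.05 over all 13848 names.

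The first question was which of these genes differ with FLT3/ITD. In the average over both media, ITD minus wild type, 1 of the 34 genes rose, the BiP-associated Sdf2l1, and 2 fell, the sensor Ern1 and the degradation factor Edem1. Of all genes, 6.03% passed this test, 3.48% as higher and 2.55% as lower, so the share of members, 3 of 34, was near the background. The median difference of the members was 0.07, and that of all genes -0.01. With 1 array left out the member median ran from -0.02 to 0.11, below 0 without ITD replicate 2 and without replicate 2 of either group with Cxcl12, so its sign was not stable. In all 11 of 34 members had an unadjusted p under 0.05 (32.4%), near the 26.3% of all genes. In 15 of the 34 genes the ITD array lay on the same side of its wild type partner (same set, same medium) in all 4 pairs, 8 higher and 7 lower. That is 44.1% of members, where 34.1% of all genes did so (16.4% higher and 17.7% lower).

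**Figure D1:**
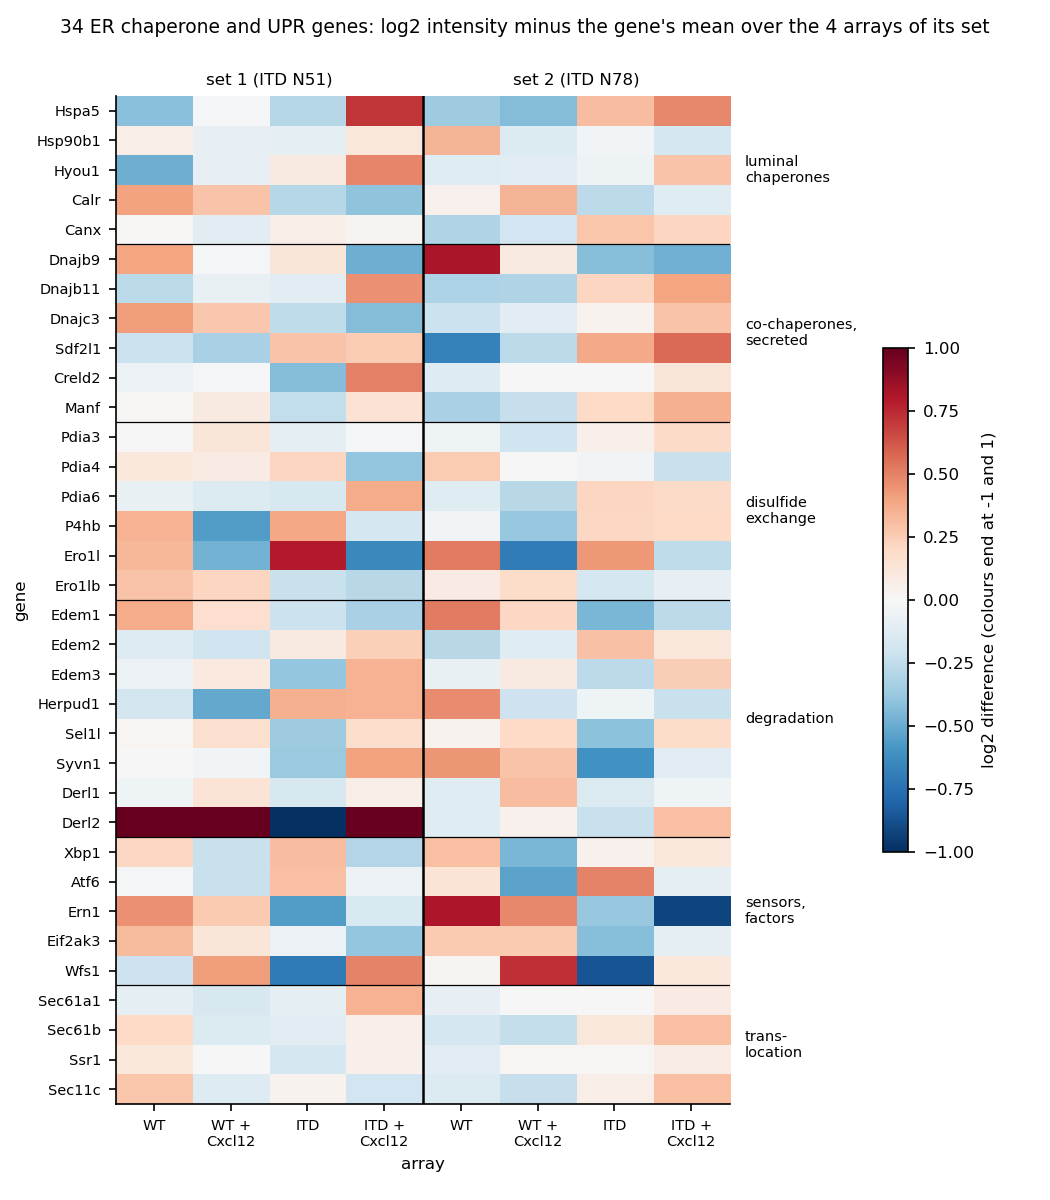
Colour shows, for each of the 34 measured genes (rows, by role) and each of the 8 arrays (columns, WT for wild type), the log2 intensity minus the mean of that gene over the 4 arrays of its set; colours end at -1 and 1. Sdf2l1 is higher and Ern1 and Edem1 lower in the ITD columns of both sets, Ero1l is lower in the Cxcl12 columns, and Derl2 stands apart on the ITD array of set 1, at -4.60, where its other arrays lie between 3.36 and 4.22.

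**Figure D2:**
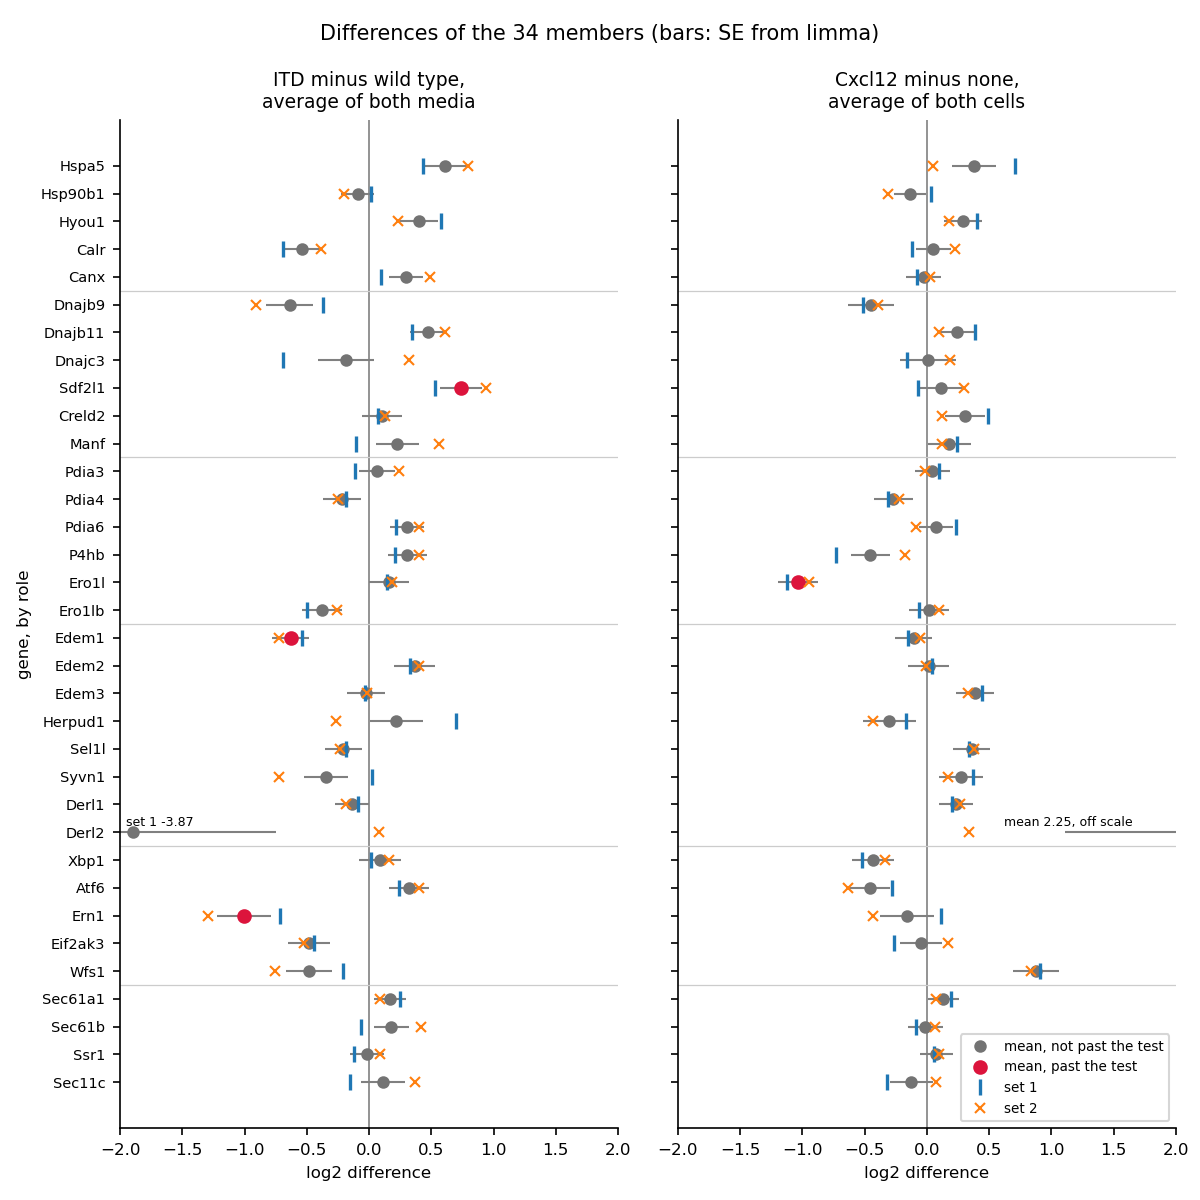
Log2 difference of each measured gene for ITD minus wild type (left) and Cxcl12 minus none (right), as the mean with its SE from limma and as the value in each set. The genes past the test are Sdf2l1 at 0.74, Ern1 at -1.005 and Edem1 at -0.63 on the left and Ero1l at -1.03 on the right; for Derl2 the value of set 1 (-3.87, left) and the mean of 2.25 (right) lie off the scale.

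Among the luminal chaperones, Hspa5 (BiP), the main ATP-driven chaperone of the ER, stood in set 1 at 4.95 in wild type cells and 5.08 in ITD cells without Cxcl12, and at 5.36 and 6.09 with it. In set 2 the levels were 4.66 and 5.33 without Cxcl12 and 4.58 and 5.50 with it. The ITD array was thus the higher in all 4 pairs, but the smallest gap was 0.13 and the groups overlapped across sets. The difference was 0.61 (SE 0.18, limma, adjusted p = 0.0729) and did not pass. As each array was left out it ran from 0.41 to 0.81, the highest without ITD replicate 1. With the authors' normalized tables it was 0.74 and passed (limma, adjusted p = 0.0382). The median of all genes shifted there as well, from -0.01 to 0.12. Calr, the calcium-binding lectin chaperone, went the other way. It stood in set 1 at 5.74 and 5.63 in wild type cells without and with Cxcl12 and at 5.05 and 4.94 in ITD cells, and in set 2 at 5.77 and 6.07 against 5.47 and 5.62. All 4 ITD arrays lay below all wild type arrays for Calr, yet its difference of -0.54 (SE 0.14, adjusted p = 0.057) did not pass, and its other probe gave -0.60. Calr did pass with quantile normalization and when probes had to be above background on all 8 arrays. Hyou1, a large HSP70-like chaperone, differed by 0.40 (adjusted p = 0.141) and Canx, the membrane-bound partner of calreticulin, by 0.30. Hsp90b1, the HSP90 of the ER, differed by -0.09. The other Canx probes gave -0.09 and 0.22, and the other Hsp90b1 probe 0.06. So 0 of the 5 luminal chaperones passed (limma), 3 had an unadjusted p under 0.05, and their values ran from -0.54 to 0.61.

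Among the co-chaperones and secreted stress proteins 1 of 6 measured genes passed. Sdf2l1, which sits in a complex with BiP and its J-domain partners, stood in set 1 at 2.21 and 2.10 in wild type cells without and with Cxcl12 and at 2.70 and 2.67 in ITD cells. In set 2 it stood at 1.69 and 2.10 in wild type cells and at 2.74 and 2.93 in ITD cells. Every ITD array lay above every wild type array. Sdf2l1 rose by 0.74 (SE 0.17, 1.67-fold, adjusted p = 0.0391), by 0.53 in set 1 and 0.94 in set 2. Its probe lies at chr16:17130426-17130485 (mm9, minus strand), and the files used here give no exon for it. When any 1 of the 8 arrays was left out, the difference stayed between 0.58 and 0.89, and it passed only without wild type replicate 1 (adjusted p from 0.0263 to 0.181).

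Dnajb11 (ERdj3), a J-domain protein that hands clients to BiP, differed by 0.48 (adjusted p = 0.0873). It stood in set 1 at 3.59 in wild type cells and 3.74 in ITD cells without Cxcl12 and at 3.78 and 4.31 with it, and in set 2 at 2.89 and 3.41 without and 2.90 and 3.60 with it. The ITD array was higher in all 4 pairs, and the sets themselves differed as much as the groups. Dnajb9 (ERdj4), a J-domain protein that holds BiP on IRE1, had the opposite sign. In set 1 it stood at 1.58 and 1.17 in wild type cells without and with Cxcl12 and at 1.31 and 0.70 in ITD cells, and in set 2 at 1.42 and 0.70 in wild type cells and at 0.18 and 0.13 in ITD cells. Its difference was -0.64 (SE 0.19, adjusted p = 0.0763; 0.0485 without ITD replicate 1), and its other probes gave -0.50 and -0.49. The 2 secreted proteins Creld2 and Manf differed by 0.10 and 0.23, and the PERK inhibitor Dnajc3 (p58IPK) by -0.19.

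The disulfide isomerases and oxidases showed 0 of 6 genes past the test with ITD (limma; 1 had an unadjusted p under 0.05, Ero1lb, at -0.38). The isomerases P4hb and Pdia6 differed by 0.31 each, Pdia3 by 0.06 and Pdia4 by -0.22. The probes of Pdia6 disagreed, with its others at -0.51 to 1.16. Among the 16 members with several probes, 7 had another probe of the opposite sign here. The oxidase Ero1l, which recharges the isomerases, differed by 0.16.

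In the degradation branch 1 of 8 measured genes passed. Edem1, a mannosidase-like protein that steers misfolded glycoproteins to degradation, stood in set 1 at 2.87 and 2.67 in wild type cells without and with Cxcl12 and at 2.29 and 2.18 in ITD cells. In set 2 the levels were 1.78 and 1.47 in wild type cells and 0.80 and 0.997 in ITD cells. Within each set both ITD arrays lay below both wild type arrays, while all of set 2 lay below all of set 1. Edem1 fell by 0.63 on the log2 scale (SE 0.15, 1.55-fold lower, adjusted p = 0.0444), at chr6:108808920-108808979 (mm9, plus strand). Its other probes gave -0.71 and -0.17. Edem1 also failed to pass with the authors' tables and with the mean of all its probes. The call was lost whichever 1 of the 8 arrays was left out (adjusted p from 0.0542 to 0.208, difference from -0.71 to -0.55).

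Its relatives did not share that value: Edem2 differed by 0.37 and Edem3 by -0.02. Of the ubiquitin ligase complex that works on the same clients, the ligase Syvn1 (HRD1) differed by -0.35 and its partner Sel1l by -0.21, where another Sel1l probe gave 0.11. Herpud1, which organises that complex, differed by 0.22 as the mean of 0.70 in set 1 and -0.26 in set 2. It stood in set 1 at 4.06 and 3.72 in wild type cells without and with Cxcl12 and at 4.60 and 4.58 in ITD cells, and in set 2 at 4.00 and 3.32 against 3.48 and 3.30. The sign of the difference thus changed with the set. Derl1 differed by -0.14, and its other probes lay between -0.31 and 0.30.

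Derl2, a Derlin of the same complex, has to be set apart. Its brightest probe stood at -4.60 on the ITD array of set 1 without Cxcl12 and between 3.36 and 4.22 on the other 7 arrays. The processed intensity of that spot was 44.5, where the other arrays gave 5115 to 14200, and the scanner software did not mark it as an outlier. The other Derl2 probe stood at 0.87 on that array, against 0.89 on the wild type array beside it, and gave an average ITD difference of -0.03. The value of -1.89 (limma, not past the test) for Derl2, its 4.39 for Cxcl12 in ITD cells and its 4.27 for the interaction rest on that 1 spot. Without the ITD array of set 2 (ITD replicate 2), Derl2 passed in 5 comparisons: ITD without Cxcl12, Cxcl12 in ITD cells, both averages and the interaction.

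Among sensors and transcription factors 1 of 5 passed. Ern1 (IRE1), the kinase and nuclease that splices Xbp1 mRNA, stood in set 1 at -1.97 and -2.16 in wild type cells without and with Cxcl12 and at -2.98 and -2.58 in ITD cells. In set 2 it stood at 1.26 and 0.93 in wild type cells and at 0.07 and -0.47 in ITD cells. Both ITD arrays lay below both wild type arrays within each set, and the sets lay far apart. Ern1 fell by 1.005 on the log2 scale (SE 0.22, 2.01-fold lower, adjusted p = 0.0339), by 0.72 in set 1 and by 1.29 in set 2. The value comes from a single probe at chr11:106258948-106259007 (mm9, minus strand). Ern1 did not pass with quantile normalization. Of the 8 fits that each left out 1 array, 2 kept the call, without wild type replicate 1 and without replicate 1 of ITD with Cxcl12, and adjusted p ran from 0.0148 to 0.171.

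The other sensor kinase, Eif2ak3 (PERK), differed by -0.48 (adjusted p = 0.118), lower in all 4 pairs, and its other probe by -0.94. Atf6 differed by 0.32, higher in all 4 pairs, and its other probe by 0.78. Xbp1, the factor that IRE1 activates, differed by 0.09, and the files used here do not say which form of its mRNA the probe detects. It stood in set 1 at 2.28 and 1.84 in wild type cells without and with Cxcl12 and at 2.38 and 1.77 in ITD cells. In set 2 it stood at 1.87 and 1.11 in wild type cells and at 1.61 and 1.69 in ITD cells, so the groups overlapped. Wfs1, a membrane protein of the ER that limits ATF6, differed by -0.48 (adjusted p = 0.139). Of the 4 genes of translocation and signal peptide cleavage 0 passed (limma, 0 with an unadjusted p under 0.05). Sec61a1 and Sec61b, subunits of the channel, differed by 0.17 (other probes -0.13 to 0.36) and 0.18, the signal peptidase subunit Sec11c by 0.11 and the translocon-associated Ssr1 by -0.02.

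**Figure D3:**
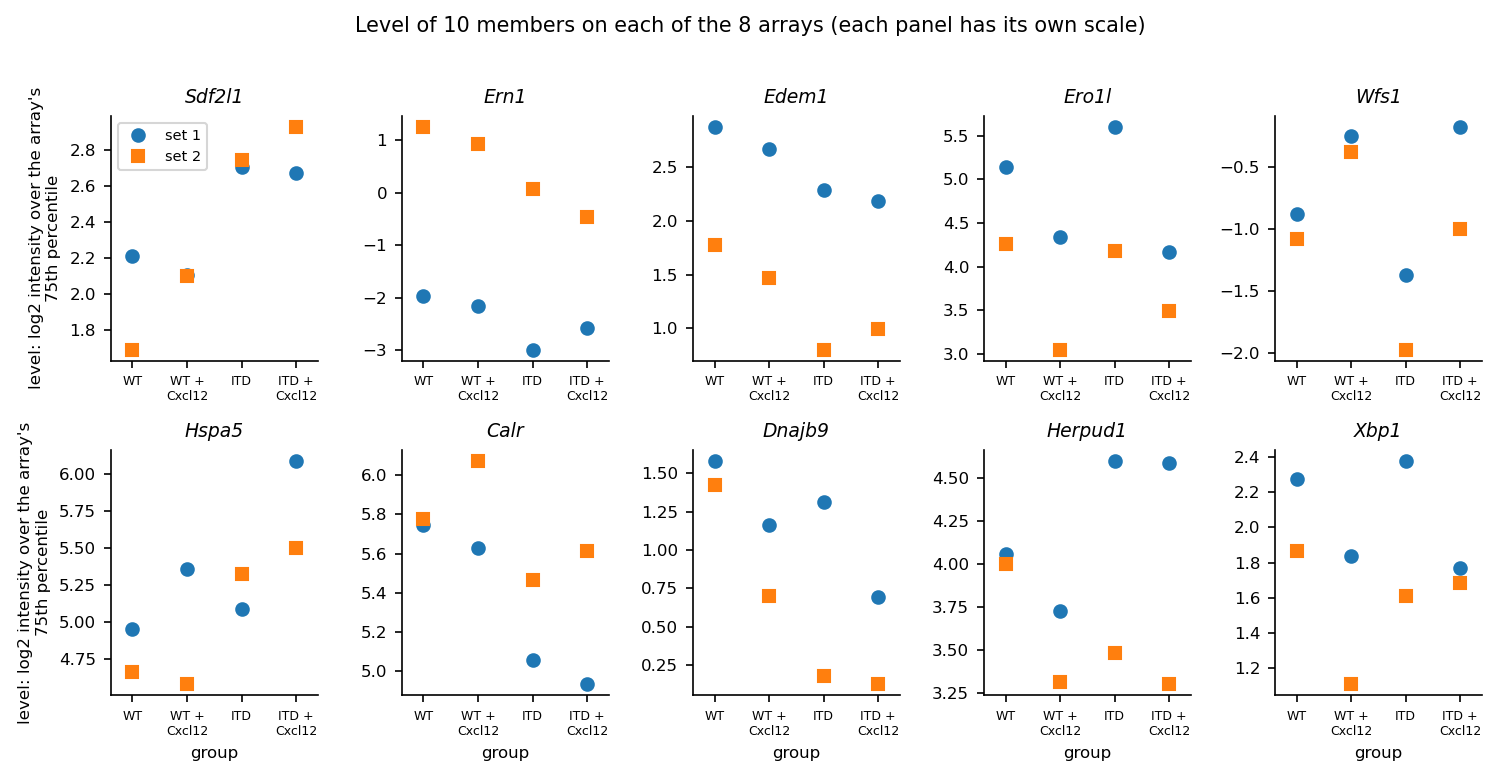
Level of 10 members on each of the 8 arrays (log2 intensity over the 75th percentile of the array), by group (WT for wild type) and set, each panel on its own scale. Every ITD point of Sdf2l1 lies above every wild type point, at 2.67 to 2.93 against 1.69 to 2.21, and Ern1 differs more between the sets than between the groups.

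Split by medium, 0 of the 34 genes passed for ITD without Cxcl12 (limma; 0.484% of all genes did) and 0 for ITD with Cxcl12 (0.83% of all genes). An unadjusted p under 0.05 was found for 8 members (23.5%, against 12.2% of all genes) and for 7 (20.6%, against 18.2%). Derl2, set apart above, was among the 8. Member medians were -0.07 without Cxcl12 and 0.22 with it, and those of all genes -0.05 and 0.03. With 1 array left out they ran from -0.14 to 0.005 (above 0 without wild type replicate 1) and from 0.09 (without replicate 2 of wild type with Cxcl12) to 0.25. Ern1 had -1.10 without and -0.91 with Cxcl12, and Sdf2l1 0.77 and 0.70. Markers of mast cells and basophils moved with ITD. Mcpt8 (-4.41), Mcpt4 (-3.31) and Cma1 (-2.90) fell, 3 of 8 on that list, and all 8 were negative. The summed level of the 8 markers, as a multiple of the 75th percentile, was 258 to 356 in wild type cells, 205 to 323 in wild type cells with Cxcl12, 51 to 134 in ITD cells and 45 to 134 in ITD cells with Cxcl12. That sum for plasma cell markers stayed between 0.0621 and 0.137 on all arrays. The monocyte marker Lyz2 (2.56) and the T cell adaptor Lat (2.07) rose with ITD, each as the only one of 4 measured markers of its list, and of the pro-B list Csf2rb2 (-0.60) and Ptprc (-0.56) fell, 2 of 9 measured. The summed level of T and NK markers was 1.04 to 1.19 in wild type cells, 0.948 to 1.75 with Cxcl12, 2.51 to 3.36 in ITD cells and 3.03 to 7.79 in ITD cells with Cxcl12. That of monocyte markers was 18.2 to 48 and 21 to 41 in wild type cells and 10.2 to 42.4 and 7.93 to 45.4 in ITD cells. These sums add linear levels, so the brightest gene weighs most. On the set 1 array of ITD cells with Cxcl12, Lat stood at 2.88 (log2) and Nkg7 at -1.51. On the set 1 array of wild type cells without Cxcl12, the monocyte marker Emr1 stood at 5.58 and Lyz2 at -3.19. The part of these markers in the results above was not tested.

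The second question was which of these genes differ with Cxcl12. In the average over both kinds of cell 1 of the 34 genes passed, Ero1l, which fell, where 0.383% of all genes passed and 0.231% were lower. Ero1l encodes the oxidase ERO1-alpha, which passes electrons from the isomerases to oxygen and is known to be induced by CHOP and by hypoxia. It stood in set 1 at 5.14 and 5.60 in wild type and ITD cells without Cxcl12 and at 4.34 and 4.16 with it, and in set 2 at 4.26 and 4.18 without and 3.05 and 3.50 with it. Within each set both arrays with Cxcl12 lay below both without. Ero1l fell by 1.03 on the log2 scale (SE 0.16, 2.05-fold lower, adjusted p = 0.0465), by 1.12 in set 1 and by 0.95 in set 2. The probe is listed at chr14:45905723-45907426 (mm9, minus strand), and the other Ero1l probe gave -1.82. The call held without replicate 2 of ITD with Cxcl12 (-1.17, adjusted p = 0.0295) and was lost without any other single array, with adjusted p up to 0.266. Its paralog Ero1lb differed by 0.02.

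No other member passed, and 8 in all had an unadjusted p under 0.05 (23.5%, against 14.9% of all genes). Wfs1 was nearest, at 0.87 (SE 0.18, adjusted p = 0.0871). It stood in set 1 at -0.88 and -1.38 in wild type and ITD cells without Cxcl12 and at -0.26 and -0.18 with it, and in set 2 at -1.08 and -1.98 without and -0.38 and -1.002 with it. Within each set both arrays with Cxcl12 lay above both without. Atf6 differed by -0.46, P4hb by -0.46, Dnajb9 by -0.45 and Xbp1 by -0.43. The other Atf6 probe gave only -0.05, and the other Dnajb9 probes -0.42 and -0.32. Of the degradation genes Edem3 (0.39), Sel1l (0.36) and Derl1 (0.23) were higher in all 4 pairs and Herpud1 (-0.30) lower in all 4, none of them past the test. Another Sel1l probe gave 0.21, with 0.50 in set 1 and -0.09 in set 2. A further Sel1l probe, missing in set 1, gave -0.60 in set 2. The other Derl1 probes lay between -0.05 and 0.02, and Herpud1 ran from -0.52 without wild type replicate 1 to -0.08 without wild type replicate 2. The luminal chaperones ran from -0.14 for Hsp90b1 to 0.38 for Hspa5, which ran from 0.18 without ITD replicate 1 to 0.57 without ITD replicate 2. In all, 9 members were higher and 6 lower in all 4 pairs, 44.1% of members against 29.4% of all genes (15.5% higher and 13.9% lower). Derl2, set apart above, was among the 9, and its other probe gave -0.14. The member median of 0.03 lay beside 0.01 for all genes. That median ran from -0.04 (without wild type replicate 2) to 0.10 (without wild type replicate 1) with 1 array left out. It was -0.27 with normexp, where 6 of 34 members were positive. When normexp was given the median background of each array instead, it was 0.04, and 18 members were positive.

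Within wild type cells 0 members passed for Cxcl12 (limma; 0.065% of all genes), and within ITD cells 0 passed (0% of all genes). An unadjusted p under 0.05 was found for 4 members (11.8%, against 7.19% of all genes) and for 8 (23.5%, against 10.4%). Derl2, set apart above, was among the 8. Ero1l had -1.01 in wild type and -1.06 in ITD cells, and Wfs1 0.66 and 1.09. Hspa5 had 0.16 in wild type and 0.59 in ITD cells, the latter as 1.004 in set 1 and 0.17 in set 2. For the interaction, the difference between those 2 values, 0 members and 0% of all genes passed (limma), and 0 members had an unadjusted p under 0.05, against 1.69% of all genes. Of the 34 members 26 had a positive interaction (76.5%, against 57.3% of all genes), with a median of 0.25 against 0.05. Only 17 of the 34 had the same sign in both sets, where the medians were 0.27 (set 1) and 0.25 (set 2). With the authors' normalized tables, 18 were positive, because all genes shifted there to a median of -0.16. Set against the median of all genes, 25 of 34 lay above it under either scaling.

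The third comparison was between the 2 kinds of ITD, N51 minus N78, each against the wild type cells of its own slide. Of the 34 members 0 passed (limma; 0.354% of all genes; 4 members, 11.8%, with an unadjusted p under 0.05, against 14.0% of all genes), and the slide is part of that difference. The 4 were Dnajc3 (-0.69 for N51 and 0.32 for N78), Herpud1 (0.70 and -0.26), Manf (-0.10 and 0.56) and Syvn1 (0.03 and -0.72), with adjusted p from 0.177 to 0.313. The other Dnajc3 probes gave -0.24, -0.55 and -0.37 for N51 and 0.004, -0.15 and 0.25 for N78, so not all of them changed sign.

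**Figure D4:**
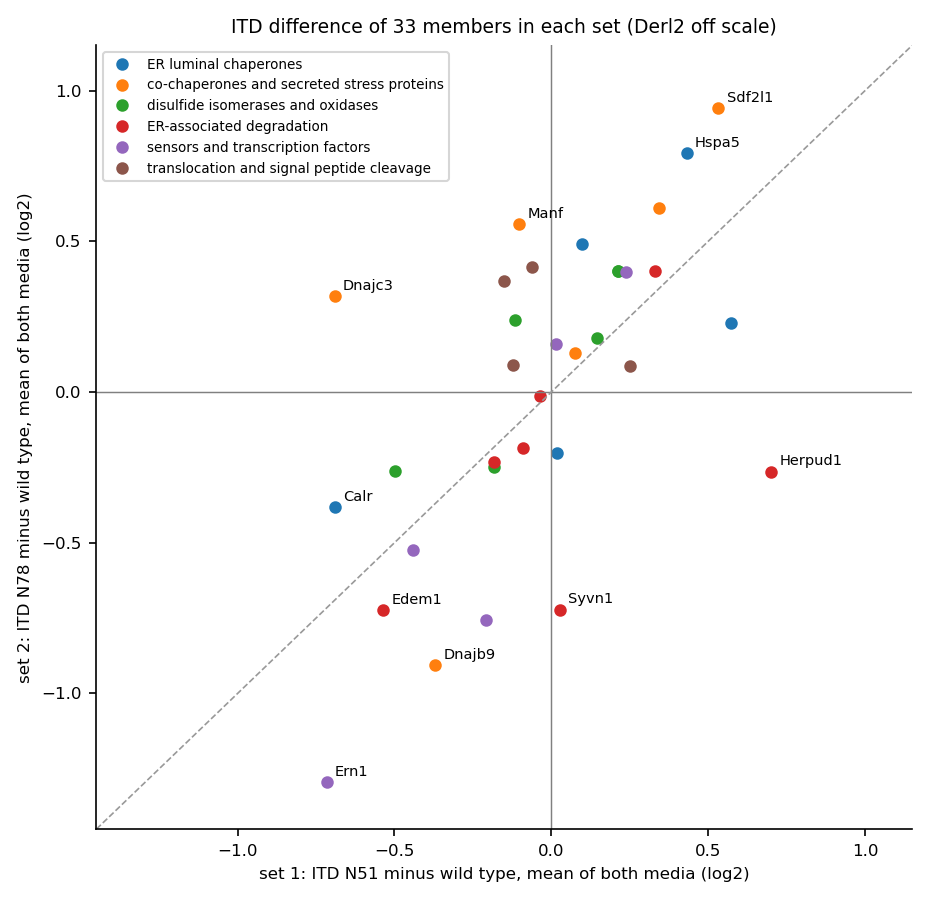
ITD minus wild type (log2, mean of both media) in set 1 with N51 (x axis) and in set 2 with N78 (y axis) for 33 measured genes, coloured by role; the dashed line marks equal values and Derl2 is left out as off scale. Ern1, Edem1, Calr and Dnajb9 lie below 0 and Sdf2l1 and Hspa5 above 0 in both sets, while Herpud1 (0.70 and -0.26) and Dnajc3 (-0.69 and 0.32) change sign.

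Genes of the same pathways outside the 36 were taken from 5 lists. In none of the comparisons did a gene of these lists pass (limma). For the average ITD difference, 3 of 10 measured genes of the PERK and ATF4 arm had an unadjusted p under 0.05, 5 of 26 for folding and disulfide exchange, 7 of 27 for translocation, signal peptidase and glycosyl transfer, 2 of 17 for degradation and 3 of 22 for ATF6 and XBP1 processing and ER-Golgi traffic. Of all genes 26.3% had such a p, so the PERK arm (30.0%) and the translocation list (25.9%) lay near that share and the others below it. The medians were 0.16, 0.00, 0.16, -0.02 and 0.01. In the translocation list 21 of 27 genes were positive (77.8%, against 48.6% of all genes). The median of that list was 0.05 in set 1 and 0.33 in set 2, and 16 of the 27 had the same sign in both. For the average Cxcl12 difference the counts with an unadjusted p under 0.05 were 3, 3, 0, 2 and 1 in the same order, against 14.9% of all genes. The PERK and ATF4 arm, at 30.0%, was the only list above that share.

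The lowest values with Cxcl12 among these lists came from targets of ATF4 that were named after their values were seen. Trib3, a pseudokinase induced by ATF4 and CHOP, stood in set 1 at 2.57 and 4.41 in wild type and ITD cells without Cxcl12 and at 1.19 and 2.79 with it, and in set 2 at 3.28 and 2.51 without and 0.35 and 1.81 with it. The array with Cxcl12 was lower in each of the 4 pairs, by -1.66 on average (adjusted p = 0.0867). Ddit3 (CHOP) differed by -1.51 (adjusted p = 0.155) and Sesn2, a stress-induced sestrin, by -1.34 (adjusted p = 0.0626), while Atf4 itself differed by -0.32. None of them passed. Of the 10 genes in this arm, 7 were negative and 3 positive with Cxcl12, with a median of -0.28. Among all genes 50.9% were positive.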

How the data were processed

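Total RNA of 8 samples was hybridised with Cy3 to Agilent 4x44K mouse arrays, 1 array per sample. The deposited intensity values had their background subtracted, per the file headers, by Agilent Feature Extraction (9.5.1.1 in set 1, 10.7.3.1 in set 2), with no scaling between arrays. The authors' deposited normalized tables also hold intensity values, each column within 0.01 log2 of a median-scaled array for at least 99.66% of probes.

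Here log2 was taken and the 75th percentile of each array was subtracted. Of 41174 probes 21126 were kept, after outlier spots were set to missing. Genes were named by the files of set 2, and the brightest kept probe stood for a gene; 16 of the 34 measured members had several. All arrays were fitted with limma 3.58.1 (R 4.3.3), as 4 group means with the slide as block and an intensity trend (3 residual degrees of freedom; 2 with an ITD by slide term). The slide pairs arrays: deviations from the group means correlated at 0.73 to 0.877 within a slide. The fit was tested on simulated data.

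The members and all lists were chosen with earlier results of these data known. Values on every array are given for members that passed, for Hspa5, Xbp1, Herpud1 and Dnajb9, and for members with a difference of at least 1 in the same direction in both sets. Calr and Dnajb11 were added after their values were seen. The alternatives were normexp, quantile normalization, the authors' tables, other probe filters, the mean of all probes, no slide block, no intensity trend and leaving out each array. Normexp with the array's median background and the values of the other Derl2 probe were added after seeing the data. A search of the proteins for ER retrieval signals was not run. Promoters are from RefSeq (Python 3.11.15, pandas 2.3.3), and no probe was placed in an exon.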

Additional observations from a re-analysis of the deposited data

How the results depend on the processing

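Of the calls, Sdf2l1, Ern1 and Edem1 with ITD and Ero1l with Cxcl12 kept their direction under every alternative run, but not their side of the threshold. The count for average ITD fell from 3 to 0 with normexp, with no filter on dim probes, with no replicate block and with no intensity trend, and ranged from 0 to 2 as each array was left out (Dnajb9 and Hspa5 passed without ITD replicate 1, and Derl2 without ITD replicate 2). A count of 3 under other settings did not always hold the same genes: with quantile normalization Calr passed in place of Ern1, and with the authors' tables Hspa5 in place of Edem1. The mean of all probes lost Edem1. Under the normexp setting added after seeing the data, Sdf2l1, Ern1 and Edem1 all kept their calls. The count for average Cxcl12 fell from 1 to 0 with quantile normalization, with no filter, with no replicate block, with no intensity trend and with the normexp setting added after seeing the data, and ranged from 0 to 1 (Derl2 without ITD replicate 2). With normexp it was 1, but Derl2 passed and Ero1l did not (-1.39, adjusted p = 0.182). With no replicate block, 0 of all genes passed in either comparison (limma; 720 and 306 with an unadjusted p under 0.05), so the calls rest on removing the slide. Derl2 alone made the count 1 with normexp for ITD without Cxcl12, Cxcl12 in ITD, the interaction and N51 minus N78, and with the authors' tables for N51 minus N78; as arrays were left out, the counts for the first 3 ranged from 0 to 1. Hspa5 with Cxcl12 reversed to -0.075 with normexp. On the array of wild type cells with Cxcl12 in set 2 the lowest spot signal minus its local background was -142200, and the background that normexp fitted was -1149, against -18.2 to 8.10 on the others; with the median background of the array it was -10.9. Herpud1 with ITD ranged from -0.0011 (reversed, without wild type replicate 1) to 0.44 as arrays were left out. Xbp1 with ITD reversed to -0.0033 without ITD replicate 1 and to -0.051 without replicate 2 of ITD with Cxcl12, and ranged up to 0.22. The median of the members moved by more than its spread with normexp to 0.77 for ITD with Cxcl12, -0.65 for Cxcl12 in wild type cells, 0.32 for average ITD, -0.27 for average Cxcl12 and 0.72 for the interaction. With the authors' tables it was 0.16 for ITD without Cxcl12 and 0.11 and -0.025 for Cxcl12 in wild type and ITD cells. It was 0.20 for average ITD and 0.035 for the interaction. All genes shifted there too, with medians of 0.19, 0.11, -0.047, 0.12 and -0.16 in the same order. The member median minus that of all genes was -0.026, 0.0037, 0.023, 0.087 and 0.19 there. The main scaling gave -0.026, 0.0036, 0.023, 0.087 and 0.19. With quantile normalization the member median was 0.080 for ITD with Cxcl12, 0.021 for Cxcl12 in ITD cells and 0.17 for the interaction. With the mean of all probes it was 0.092 for Cxcl12 in ITD cells, 0.0016 for average Cxcl12 and 0.23 for the interaction. With the added normexp setting it was 0.20 for ITD with Cxcl12, 0.00028 for Cxcl12 in wild type cells and 0.099 for average ITD. For average Cxcl12 it was 0.039 under that setting, and for the interaction 0.19. As arrays were left out it ranged from 0.092 to 0.25 for ITD with Cxcl12, from -0.13 to 0.040 for Cxcl12 in wild type cells, from 0.017 to 0.18 for Cxcl12 in ITD cells, from -0.042 to 0.10 for average Cxcl12 and from 0.16 to 0.25 for the interaction. The cause of the other reversals and losses was not tested. With 2 arrays a group, their number limits the precision.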

Other observations

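Of the 27 genes of translocation, signal peptidase and glycosyl transfer, 24 were lower for N51 than for N78, each against wild type on its slide. Positive values made up 11.1% of this list and 46.8% of all genes. The median was -0.28, against -0.04 for all genes. None passed (limma), and 3 had an unadjusted p under 0.05 (11.1%, against 14.0% of all genes). The PERK and ATF4 arm ran mostly the other way, with 7 of 10 genes positive (46.8% of all genes were) and a median of 0.64. Its values ran from -0.94 to 1.88, and 3 genes were negative. In this arm 6 genes had an unadjusted p under 0.05 (limma), counted in either direction, against 14.0% of all genes. Ddit3 differed by 1.06 for N51 and -0.83 for N78 and Ppp1r15a, which restarts translation, by 0.95 and -0.76 (adjusted p = 0.216 and 0.0654). The Ddit3 value of N51 came from the medium without Cxcl12 alone, at 2.34, against -0.23 with it, and rests on 1 array. For Ppp1r15a the values of N51 were 1.26 and 0.64 and those of N78 -0.75 and -0.76. Slide and kind of ITD cannot be told apart in these values. The erythroid genes Hba-a1 (2.99) and Hbb-b1 (4.10) were higher in the same comparison and passed it.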
